A study of Caenorhabditis elegans with 2 samples.

Results

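The nuclear genes for the mitochondrial ribosome and the respiratory chain numbered 110 of the 19973 nuclear protein-coding genes of Caenorhabditis elegans in the Ensembl annotation of build WBcel235. Membership was decided by name, but the set was chosen with earlier results of these data known. Names begin with mrpl- or mrps- (ribosome), or with mppa- or mppb- (processing peptidase). Those for the respiratory chain and ATP synthase begin with nuo-, sdha-, sdhb-, sdhd-, ucr-, cyc-1, cyc-2, cox- or atp-. Genes of the same machinery that carry other names, such as those beginning with ndua- or ndub-, were counted apart. By role, 41 members encoded proteins of the large mitoribosomal subunit and 29 of the small subunit. Complex I had 6 members, complex II 4, complex III 6 and cytochrome c 2. Complex IV had 7 subunits and 8 assembly factors, ATP synthase had 5 members and the processing peptidase 2.

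The study mapped by chromatin immunoprecipitation and sequencing (ChIP-seq) where the protein Y116A8C.19 sat on the worm genome. Its 1 group comprised 2 biological replicates of strain OP532, which carries unc-119(tm4063) on chromosome III and the integrated transgene wgIs532, a source of Y116A8C.19 fused at its C-terminal end to GFP and FLAG. Hermaphrodites were synchronized by bleaching and starvation at the L1 stage and taken 6 hours later as L1 larvae, and sonicated chromatin was pulled down with an antibody against GFP. Whole larvae were used, so cell types cannot be told apart, and with 1 group of 2 replicates no comparison below has a test over samples.

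Mitochondria keep a small genome of their own that encodes core subunits of complexes I, III and IV and of ATP synthase, and a dedicated ribosome inside the organelle translates them. The proteins of that ribosome, and most subunits of the respiratory chain, are instead encoded in the nucleus, made in the cytosol and imported, after which the mitochondrial processing peptidase cuts off the import signal. The chain passes electrons from complexes I and II through complex III and cytochrome c to complex IV, and ATP synthase uses the resulting proton gradient, so in all tissues the nuclear genes have to be used in balance with mitochondrial DNA.

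Sequences under the summits (the highest point of each region, as the authors gave it) are shown first, because the 6 genes concerned had the best pooled ranks of the set. Each is the plus strand of the RefSeq WBcel235 genome, within 75 bp on either side of the summit. For atp-5 the stretch ends at the nearest exon, and for mrps-35, whose summit lies in an untranslated exon, only 22 bases are given. Capitals mark matches, with at most 1 mismatch and on either strand, to the 8-base elements GAGTACAC and CTAGGCCA. Both elements were taken from these same peaks in an earlier analysis, so their presence there is a description.
mppb-1 (chrIV:9074340-9074490): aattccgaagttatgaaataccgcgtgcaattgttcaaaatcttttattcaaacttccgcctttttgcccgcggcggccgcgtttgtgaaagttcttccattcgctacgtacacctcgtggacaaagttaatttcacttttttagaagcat
cox-5A (chrIII:12905124-12905274): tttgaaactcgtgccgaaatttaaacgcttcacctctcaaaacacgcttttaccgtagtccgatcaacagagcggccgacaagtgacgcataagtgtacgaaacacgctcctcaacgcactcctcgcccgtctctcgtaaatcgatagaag
mrps-35 (chrV:18981188-18981209): CTAGGCCAccgccgGTGTACTC
mrpl-18 (chrIII:8144702-8144852): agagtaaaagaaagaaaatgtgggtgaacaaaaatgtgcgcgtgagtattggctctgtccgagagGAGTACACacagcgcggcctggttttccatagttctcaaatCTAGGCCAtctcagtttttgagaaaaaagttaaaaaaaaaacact
ucr-2.1 (chrX:12018057-12018207): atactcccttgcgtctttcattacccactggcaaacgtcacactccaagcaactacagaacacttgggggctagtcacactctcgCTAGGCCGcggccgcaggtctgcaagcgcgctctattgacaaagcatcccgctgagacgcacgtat
atp-5 (chrV:11124101-11124185): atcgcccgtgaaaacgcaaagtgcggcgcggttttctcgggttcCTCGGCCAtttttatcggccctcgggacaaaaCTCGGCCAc
The mrps-35 and mrpl-18 stretches held an exact copy of each element. In mrps-35 the copy of CTAGGCCA began at the summit base itself, and GAGTACAC followed 14 to 21 bases further along, on the minus strand. In mrpl-18 GAGTACAC lay 10 to 3 bases before the summit and CTAGGCCA lay 31 to 38 bases after it, both on the plus strand. The stretch of ucr-2.1 held CTAGGCCG and that of atp-5 held CTCGGCCA at 2 places, each with 1 mismatch to CTAGGCCA. The stretches of mppb-1 and cox-5A, the members with the largest signals, held no match to either element.

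Few of the 110 genes had a peak that passed the authors' threshold for reproducibility, and a larger number had weaker regions upstream. A gene was counted where a summit lay at most 1000 bp before, or 200 bp after, its annotated 5′ end. In the thresholded list of 198 peaks, 4 members (3.64%) were counted: mppb-1, cox-5A, mrps-35 and mrpl-18. The same was true of 231 of 19863 other genes (1.16%). The pooled list of 2689 regions, called on both replicates together and holding background as well as peaks, counted 19 members (17.3%) against 1312 others (6.61%). The 19 genes were reached through 18 regions, since mrps-24 and mrpl-1 share one.

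In the far longer replicate lists the shares lay closer together. The list of replicate 1, with 22595 regions, counted 48 members (43.6%) against 30.0% of other genes, and that of replicate 2, with 22358 regions, counted 38 members (34.5%) against 28.9%. A region in both replicate lists was found for 23 members (20.9%) and 2553 others (12.9%). Among the best 1000 regions of both lists stood the same 4 members as in the thresholded list (3.64%), against 292 others (1.47%). The thresholded list is derived from these lists, so the calls are not independent. The difference in replicate 2 is small, and it turned round (22.7% against 24.2%) when each summit was given to its nearest 5′ end alone. Under that rule the share of genes with regions in both replicates was 10.0% for members and 9.62% for others, and the pooled share was 10.9% against 4.92%.

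**Figure D1:**
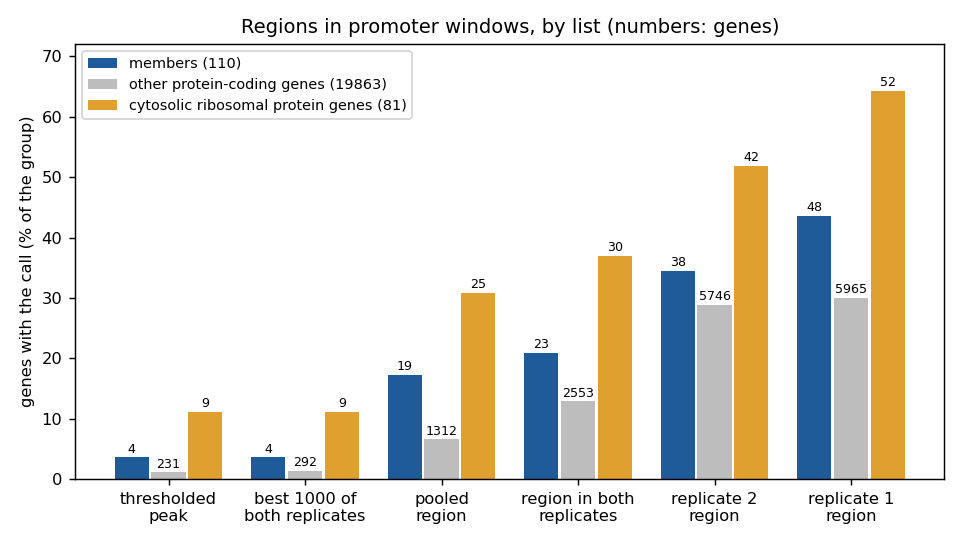
Share of genes (%, vertical axis) with a summit in the window of 1000 bp before to 200 bp after the 5′ end, for 6 calls (horizontal axis), in members, other protein-coding genes and cytosolic ribosomal protein genes; numbers over bars are genes. The members' bars stand between the other 2 groups in each call, from 3.64% for thresholded peaks to 43.6% for regions of replicate 1.

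Chromosomes differ in how often their genes have regions, and the members sat mostly on III (31 genes) and I (27), with 17 each on II and IV, 15 on V and 3 on X. When the other genes were weighted to that distribution, a rule added after the values were seen, their share was 1.54% for thresholded peaks and 7.47% for pooled regions, still below the members' 3.64% and 17.3%. On chromosome I only mrps-27 had a pooled region (3.70% of members against 7.72% of other genes there). On II and IV, 5 of 17 members each had one (29.4%, against 6.73% and 6.25% of others). On III it was 5 of 31 (16.1% against 9.51%), on V 2 of 15 (13.3% against 5.60%) and on X 1 of 3 (33.3% against 4.77%). On chromosome III, where 2.68% of other genes had a thresholded peak, 2 of 31 members did (6.45%).

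Genes for the ribosome of the cytosol were set beside those for the ribosome of the organelle. Of 81 genes with names beginning rpl-, rps- or rla-, 9 (11.1%) had a thresholded peak, 25 (30.9%) a pooled region and 30 (37.0%) a region in both replicates. The 70 mitoribosomal genes had 2 (2.86%), 12 (17.1%) and 14, and the other 40 members had 2 (5.00%), 7 (17.5%) and 9 (22.5%). The 2 kinds of member thus had like shares, each below that of the cytosolic ribosome and above that of all other genes. These shares carry no test.

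Values for the 4 members with thresholded peaks follow by role. Signals are the authors' own, on a scale the sources do not state, and they order the regions of a single list; ranks in lists of different length do not measure a change. Over the thresholded list the signal ran from 55.0 to 247.7 with a median of 75.6, and every peak carried the same −log10 q-value of the authors, 2.66.

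The gene for the beta subunit of the processing peptidase, mppb-1 (WBGene00013880, plus strand), had the strongest peak, at chrIV:9074220-9074609 with a summit at −258 bp from its 5′ end. The pooled signal was 138.0, rank 19. In replicate 1 the signal was 78.2 (rank 30, summit at −251 bp) and in replicate 2 it was 60.2 (rank 17, summit at −260 bp). The replicates thus placed the summit 9 bp apart, in intergenic DNA with mppb-1 as the nearest coding 5′ end. Its partner mppa-1, which encodes the alpha subunit, was listed near the bottom in replicate 1, with signal 9.69 (rank 21060, −99 bp). In replicate 2 it had signal 10.6 (rank 7614, −106 bp). The mppa-1 summits lay close together, yet its window held no pooled region, so the 2 subunits of 1 enzyme stood far apart in rank.

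The gene for a nuclear subunit of cytochrome c oxidase, cox-5A (WBGene00012553, plus strand), had its peak at chrIII:12905004-12905393, with a summit at −292 bp and a pooled signal of 95.6 (rank 50). Replicate 1 gave signal 52.9 (rank 78, −286 bp) and replicate 2 gave 45.0 (rank 34, −279 bp). This summit was also intergenic and had no nearer coding gene. The other 6 subunit genes of complex IV had no pooled region, and their places in the replicate lists varied widely. The best of them, cox-6A, was at rank 490 in replicate 1 (signal 24.7, −819 bp) and had no region in replicate 2. The genes cox-6C (ranks 9585 and 17547) and cox-7C (20848 and 1856) were in both lists, cox-5B (7769) in replicate 1 alone and cox-6B (10721) in replicate 2 alone, while cox-4 was in neither.

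For the small mitoribosomal subunit the thresholded peak was that of mrps-35 (WBGene00012697, plus strand), at chrV:18980993-18981382, summit at −118 bp, pooled signal 91.5 and rank 60. The signal was 59.4 in replicate 1 (rank 57, −118 bp) and 28.8 in replicate 2 (rank 104, −119 bp). Summits in the replicates differed by 1 bp, the least among these 4 genes. The summit also fell in the 5′ UTR of sws-1, which runs from the opposite strand across this site. Over the ends of single transcripts, one of sws-1 was nearest, with the summit at −38 bp, so the peak cannot be assigned to either gene by position.

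For the large subunit it was mrpl-18 (WBGene00017044, plus strand), at chrIII:8144582-8144971, summit at −238 bp, pooled signal 85.9 and rank 73. Replicate 1 gave 43.2 (rank 127, −244 bp) and replicate 2 gave 40.2 (rank 48, −255 bp). The gene C14B9.8 starts on the other strand, and its 5′ end was nearer the summit at −148 bp. Of the 4 thresholded genes, then, mppb-1 and cox-5A had the peak to themselves by distance, and the mitoribosomal pair shared theirs with a neighbour.

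**Figure D2:**
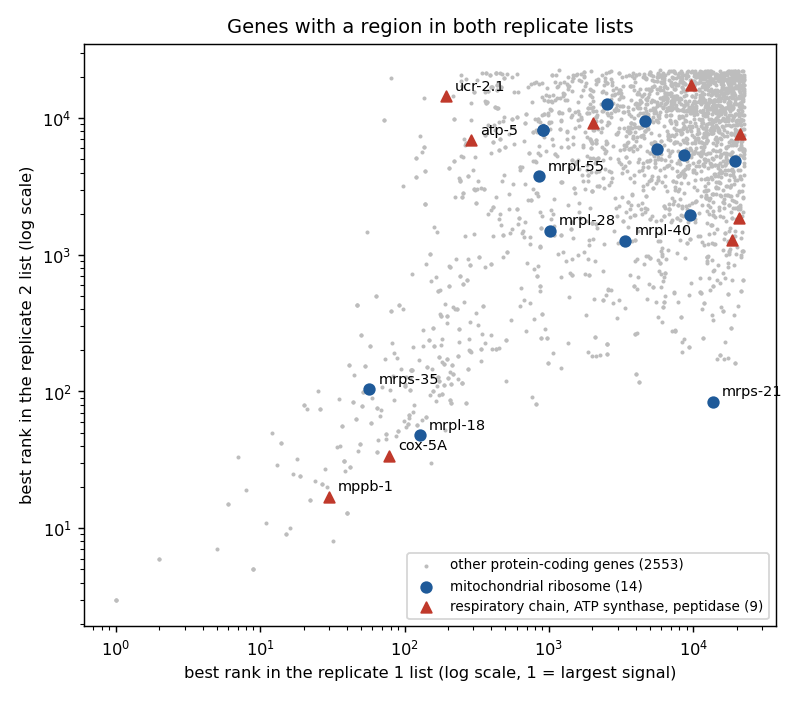
Best rank of each gene in replicate 1 (horizontal) and replicate 2 (vertical), both on log scales with 1 the largest signal, for 23 members (14 mitoribosomal, blue circles; 9 others, red triangles) and 2553 other genes (grey) with a region in both lists. The 4 thresholded members, which were selected for reproducibility, lie in the lower left at ranks of 17 to 127. The remaining members have a worse rank of 1498 or beyond.

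These 4 were selected for reproducibility between the replicates, so their like ranks follow from that choice. The replicates ranked the remaining members differently. The next best, by the worse of both ranks, were mrpl-28 (1498), mrpl-40 (3386), mrpl-55 (3765), mrpl-32 (5901) and atp-5 (6879), followed by mrpl-1 and mrps-24 at 8167. Over the 23 members in both lists, the 4 included, the Spearman correlation of the ranks was 0.224. Over the 2553 other genes it was 0.369. Genes that share a region enter more than once, and both lists were called with a control, so these are descriptions. The best-ranked summits of the replicates lay within 100 bp of each other for 13 of the 23 (56.5%, against 45.7% of other genes). The median gap was 32 bp against 122 bp.

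The pooled list added 15 members below the threshold, with ranks from 261 to 2450. Its median signal was 28.1, and 24.5 was its lowest. Of these 15, 6 encoded large-subunit proteins, 4 small-subunit proteins, 2 each complex III and ATP synthase, and 1 an assembly factor of complex IV.

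Complex III had the highest of them, ucr-2.1, which encodes a core subunit of the cytochrome bc1 complex. Its pooled region on X had signal 46.8 (rank 261, −log10 q 1.87) with a summit at −297 bp. In replicate 1 the signal was 35.5 (rank 193), but in replicate 2 it was 8.75 (rank 14516), close to that list's lowest value of 7.42. The divergent gene nmat-1, for an NAD-synthesis enzyme, was nearer the summit at −89 bp. The gene ucr-1, for another core subunit, was at the far end of the pooled list with signal 24.99 (rank 2450, −118 bp). It had rank 1123 in replicate 1 (signal 20.2) and no region in replicate 2, and the divergent helicase gene ddx-15 had the same summit at −299 bp. Of the remaining complex III genes, ucr-11 was in replicate 1 alone (rank 12000), ucr-2.2 in replicate 2 alone (21121), and ucr-2.3 and cyc-1, which encodes cytochrome c1, were in no list.

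For ATP synthase the pooled regions were those of atp-5, which encodes subunit d of the peripheral stalk, and atp-2, which encodes the catalytic beta subunit. The atp-5 region had signal 41.6 (rank 329, −log10 q 1.27, −309 bp), and its signals were 29.7 in replicate 1 (rank 289) and 10.9 in replicate 2 (rank 6879). The summit was at −10 bp from the 5′ end of the divergent gene lmtr-3, for a lysosomal adaptor subunit, and thus far nearer to that gene. The atp-2 region on III had signal 30.8 (rank 852, −264 bp), with 17.9 in replicate 1 (rank 2005) and 10.1 in replicate 2 (rank 9188). Its summit was nearly as close to the divergent C34E10.10 and C34E10.12, at −269 and −272 bp. The genes atp-3 and atp-4 had regions in replicate 1 alone, at ranks 18718 and 21293, and atp-1 had none.

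Complex IV assembly was represented by cox-10, which encodes the farnesyltransferase that turns heme B into heme O on the way to heme A. Its pooled region on II had signal 30.9 (rank 850, −106 bp), and it stood high in replicate 2 (rank 221, signal 22.1) but was missing from replicate 1. The divergent Y38E10A.33 had this summit at −202 bp, and the summit fell in the non-coding gene Y38E10A.30. Among the other 7 assembly factors, cox-14 was in replicate 1 alone (rank 2121) and cox-16 in replicate 2 alone (21270), and cox-11, cox-15, cox-17, cox-18 and cox-19 were in no list.

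The small-subunit genes with pooled regions were mrps-7, mrps-24, mrps-16 and mrps-27. The mrps-7 region had signal 36.5 (rank 461, −158 bp), and it was at rank 251 in replicate 1 (signal 31.4) with none in replicate 2. The region shared by mrps-24 and the large-subunit gene mrpl-1 had signal 32.1 (rank 701) between the 2 divergent genes, at −164 and −180 bp. Its signals were 21.1 in replicate 1 (rank 904) and 10.4 in replicate 2 (rank 8167), and emc-6, for a subunit of the endoplasmic reticulum membrane complex, was nearest at −145 bp. One summit thus lay in the windows of 3 genes, 2 of them members on opposite strands. The mrps-16 region (signal 29.1, rank 1143, −208 bp) had ranks 2530 and 12686 in the replicates. The mrps-27 region (signal 26.2, rank 1946) was the only one downstream of the 5′ end, at 134 bp within the gene's own 5′ UTR, and came from replicate 2 (rank 723) with none in replicate 1.

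Among the large-subunit genes, mrpl-55 had the highest region below the threshold after mrpl-1, with signal 31.9 (rank 717, −226 bp). Its signals were 21.3 in replicate 1 (rank 847) and 12.5 in replicate 2 (rank 3765). The mrpl-28 region (signal 29.4, rank 1094, −115 bp) had ranks 1020 and 1498, the closest pair of ranks among these 15 genes, although the replicate summits were 198 bp apart. The mrpl-20 region (signal 29.5, rank 1054, −312 bp) had ranks 19536 and 4844 with summits 3 bp apart. For these 3 genes the nearest coding 5′ end was their own. Regions of mrpl-40 (signal 28.8, rank 1188, −732 bp) and mrpl-37 (signal 27.8, rank 1442, −513 bp) were farther out, and attf-3 at −443 bp and lin-38 at −344 bp were nearer. The mrpl-40 summit fell in a coding exon of F54C4.4. For mrpl-40 the best-ranked summits lay apart, at 122 bp in replicate 1 and −737 bp in replicate 2. Replicate 1 had 2 regions in this window and only the better was compared, so whether the replicates share a site was not tested.

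**Figure D3:**
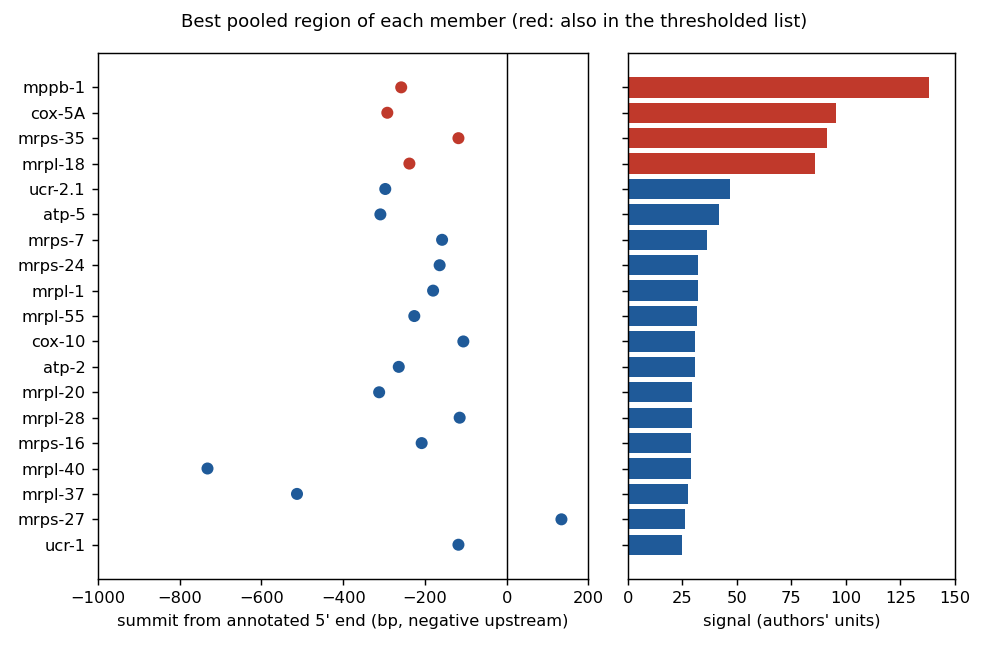
Best pooled region of the 19 members that had one, in order of signal: left, distance of the summit from the annotated 5′ end in bp (negative upstream); right, signal in the authors' units, with bars from 0. Red marks the 4 genes in the thresholded list, with signals from 85.9 to 138.0; the next gene, ucr-2.1, has 46.8, and 18 of the 19 summits lie upstream.

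Of the 19 genes, 18 (94.7%) had the summit upstream, against 89.9% of the other genes with a pooled region. In a narrower range, chosen after the values were seen, 16 of 19 (84.2%) lay 100 to 400 bp upstream, against 573 of 1312 others (43.7%). The exceptions were mrpl-40, mrpl-37 and mrps-27. Offsets ran from −732 to 134 bp with a median of −226 bp, beside −260 bp for others. In replicate 1 the same range held the best summits of 27 of 48 members, against 1809 of 5965 other genes (30.3%). In replicate 2 it held those of 19 of 38 members, against 1706 of 5746 other genes (29.7%). The pooled regions were called on these same replicates, so the replicate counts are no independent check of the range. For 12 of the 19 the nearest 5′ end among coding gene records was the member's own, and for 11 it was among single transcripts, where sws-1 replaced mrps-35.

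A further 44 members (40.0%, against 39.5% of other genes) were found in replicate lists alone, 8 of them in both. Beside mrpl-32, these 8 were mrpl-17, mrps-9, mrps-21, cox-6C, cox-7C, nuo-6 and mppa-1. The best region of complex I was that of nuo-6, which encodes an accessory subunit, with signal 15.3 in replicate 2 (rank 1282) and 10.2 in replicate 1 (rank 18568). The genes nuo-1 and nuo-2 were in replicate 1 alone, at ranks 7232 and 14738. For complex II it was sdha-1, for the flavoprotein subunit, in replicate 1 alone (signal 14.5, rank 5474, −203 bp). Regions this far down the lists include those the authors supplied as background.

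The remaining 47 members (42.7%, against 53.9% of other genes) had no region in any list. They were 21 large-subunit and 9 small-subunit genes, nuo-3, nuo-4 and nuo-5 of complex I, and sdha-2, sdhb-1 and sdhd-1 of complex II. Both cytochrome c genes, cyc-2.1 and cyc-2.2, were among them, as were the complex III, complex IV and ATP synthase genes named above as in no list. Complexes I and II and cytochrome c thus had no member, of 12 in all, in the pooled list. With so few genes per complex, whether complexes differ cannot be read from these counts, and a list keeps no read counts, so the depth behind a missing region is unknown.

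**Figure D4:**
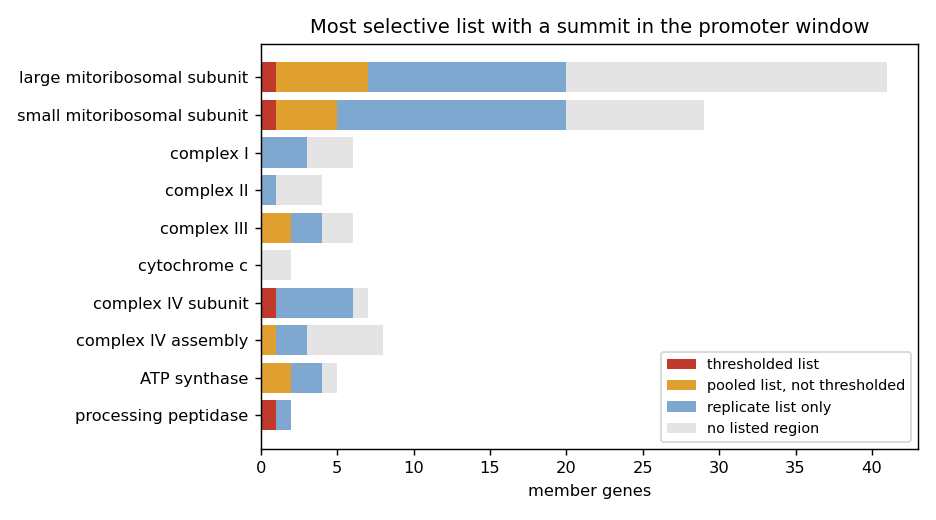
Number of member genes (horizontal axis) by role, coloured by the most selective list in which the gene's window held a summit: thresholded, pooled but not thresholded, replicate list only, or none. Single thresholded genes stand in both mitoribosomal subunits, the complex IV subunits and the peptidase, and 21 large-subunit genes have no region.

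The 1000 bp limit left out strong peaks near 3 members. For cyc-2.1, which encodes cytochrome c, the summit was at −1081 bp (pooled signal 108.7, rank 38; ranks 42 and 28 in the replicates). For mrps-21 it was at −1013 bp (signal 95.2, rank 52; ranks 44 and 84), and in replicate 2 the summit at −998 bp came just inside the window. For cox-10 it was at −1874 bp (signal 67.4, rank 122; ranks 206 and 87). All 3 peaks lay nearer another coding gene, which was Y17G9B.5 for cyc-2.1, F29B9.11 for mrps-21 and Y38E10A.22 for cox-10. Extending the window to 2000 bp counted 7 members (6.36%) and 283 others (1.42%).

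Many worm genes are transcribed in tandem from an upstream promoter as operons, and mitochondrial genes are often among them. Operons are not annotated in the files used here, so the arrangement of genes was used instead, with classes settled in part after the values were seen. In 42 of the 110 members (38.2%), and in 3573 of the 19863 other genes, a gene on the same strand ended within 500 bp upstream. In another 45 (40.9% against 17.4%) the 5′ end of a divergent gene lay within 1000 bp. The remaining 23 (20.9% against 64.6%) had neither, so members were more often packed close to neighbours than other genes were.

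The share with a pooled region differed between these classes. No member of the 42 with a close upstream gene on the same strand had one, where 184 of 3573 other such genes did (5.15%). That 0 rests on the 1000 bp edge, since cyc-2.1 and mrps-21 belong to this class. With interval overlap, they made it 2 of 42 (4.76% against 6.35%), and with the window to 2000 bp ucr-11 joined them (7.14% against 9.04%). Of the 45 with a divergent neighbour 11 did (24.4% against 14.6%), and of the 23 with neither 8 did (34.8% against 4.85%). With nearest 5′ ends only, the divergent class had 4 of 45 (8.89% against 7.30%) and the last class again 8. These splits by class were also added after the values were seen. The thresholded peaks of mppb-1, cox-5A and mrps-35 were in the last class (3 of 23, 13.0%, against 64 of 12837, 0.499%). That of mrpl-18 was in the divergent class, where members were below other genes (1 of 45, 2.22%, against 128 of 3453, 3.71%). With a close same-strand gene it was again 0 of 42 at the 1000 bp limit, against 39 of 3573 (1.09%). The 5′ end of sws-1, whose gene overlaps mrps-35, did not count as divergent under this rule. In the replicate 1 list, members with a close same-strand gene were below other genes (23.8% against 28.8%). Those with a divergent neighbour (57.8% against 39.8%) and those with neither (52.2% against 27.7%) were above. Without the genes that follow a close neighbour, 27.9% of 68 members had a pooled region against 6.92% of others.

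**Figure D5:**
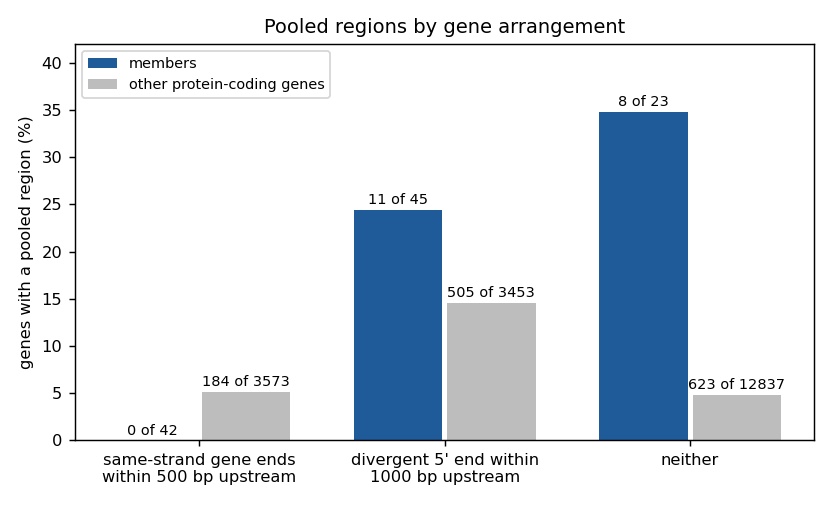
Share of genes with a pooled region in the window of 1000 bp before to 200 bp after the 5′ end (%, vertical axis, from 0) by gene arrangement, members in blue and other protein-coding genes in grey, with counts over the bars. Members with a close same-strand gene upstream are at 0 of 42, those with a divergent neighbour at 24.4% and those with neither at 34.8%.

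The 8-base elements shown above were about as frequent in the members' promoters as in those of other genes. In the 300 bp from 250 before to 50 after the 5′ end, 23 members (20.9%) and 3815 others (19.2%) held at least 1 of them with up to 1 mismatch on either strand. Exact copies stood in 4 member promoters (3.64%, against 1.99%), those of cox-14, mrpl-18, mrps-31 and mrps-35. Exact copies of both stood in mrpl-18 and mrps-35 (1.82%) and in 13 other promoters (0.0654%). The mrpl-18 copies also lie in the promoter window of the divergent C14B9.8, which counts among the other genes. Those are the same 2 members that had thresholded peaks over the elements. Both elements were taken from these same peaks, so that overlap is a description and no support. The genes cox-14 and mrps-31 had regions in replicate 1 alone, at ranks 2121 and 6136.

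Under the summits, within 75 bp on either side, 2 of the 4 thresholded members' peaks held an element, against 101 of the 194 other thresholded peaks (52.1%). Below the threshold, 4 of 14 pooled regions in member windows held one (28.6%: ucr-2.1, atp-5, mrps-7 and mrpl-37), every match with 1 mismatch. In other promoter windows 135 of 859 did (15.7%). Of pooled regions in no promoter window, 10.9% held one. The elements were taken from these same peaks, so their frequency under the summits is a description.

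The stretches of mppb-1, cox-5A and ucr-2.1 shared another run, GCGGCCG, picked out after they were read. It is counted here exactly and on both strands, and its inner GGCC overlaps CTAGGCCA. It occurred in 2 of 4 thresholded member peaks and in 1 of 14 member regions below the threshold (7.14%). These are the stretches it was read from, so both counts were fixed by that choice. Elsewhere it occurred in 17 of 194 other thresholded peaks (8.76%) and 14 of 859 pooled regions in other promoter windows (1.63%). Among promoters of 300 bp, 2 of 110 members (1.82%) and 184 others (0.926%) held it. The member promoters that held it were those of mrps-33 and nuo-2, neither with a pooled region.

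Mitochondrial genes with other names were counted in the same way. Of 43 further respiratory chain genes, 2 (4.65%) had a thresholded peak and 8 (18.6%) a pooled region, close to the members' 3.64% and 17.3%. In the replicate lists their shares were higher than those of the members, at 55.8% in replicate 1, 51.2% in replicate 2 and 39.5% in both, where the members had 43.6%, 34.5% and 20.9%. The strongest was sco-1, for a copper chaperone of complex IV, with pooled signal 120.6 (rank 31, −224 bp) and signals of 85.5 and 33.1 in the replicates (ranks 21 and 75). That of ndua-2, for a complex I subunit, had 57.0 (rank 185), with 41.5 in replicate 1 (rank 138) and 13.7 in replicate 2 (rank 2336). Complex I thus had a thresholded peak at a gene outside the nuo- names. Further genes of this group with pooled regions were ndua-1, ndub-8, nduv-3, ndab-1, nduf-11 and nuaf-1. For nduv-3, the gene mdf-2 was nearer the summit.

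Of 10 genes for mitochondrial DNA upkeep and translation, 2 had a thresholded peak. They were gfm-1, for the organelle's elongation factor G (signal 118.5, rank 32, −163 bp; ranks 20 and 79), and tufm-2, for its elongation factor Tu (signal 96.4, rank 47, −154 bp; rank 59 in both replicates). The tufm-2 summit was nearer the exocyst gene exoc-7. Both are partners of the mitoribosome in protein synthesis. Of 17 citric acid cycle genes, 4 (23.5%) had a pooled region and none a thresholded peak. The highest was aco-2, for aconitase (signal 52.0, rank 216), with eef-1B.1 nearer its summit.

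Of 11 quality control genes, 3 (27.3%) had a pooled region and hsp-60, for the matrix chaperonin, a thresholded peak (signal 64.8, rank 136). That summit was at −595 bp, with Y22D7AL.10 nearer. Of 15 protein import genes, 3 had a pooled region, and of 8 coenzyme Q genes 1 did, coq-5, in a region shared with tomm-7. Neither list had a thresholded peak. Lists of 8 to 43 genes allow no ranking among these groups.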

How the data were processed

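The deposited lists on build ce11 were used: a thresholded list, a pooled list and 1 list per replicate. Per the notes deposited beside the lists, the authors called the replicate and pooled lists with a control and derived the thresholded list from them by IDR, a measure of reproducibility. The aligner, peak caller, versions and threshold were not given in the sources used here. Each deposited list gives a signal of the authors, of unstated scale, and a −log10 q-value. The signal was used to rank regions within a list. No counts are given, so depth is unknown and no interval was computed. Lists on build ce10 were not used.

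Summits were placed against 5′ ends of Ensembl release 115 gene records, and sequence came from the RefSeq WBcel235 genome, the same build as ce11. Each gene took its best-ranked region per list. Genes named in the text are the members with a thresholded or pooled region, the 10 best by the worse replicate rank and the best in each role; others were named after their values were seen. Members, gene lists and elements were chosen with earlier results of these data known. Of the names in the gene lists, sdhc-1, gfm-2 and mterf-1 to mterf-4 matched no gene. Other windows, interval overlap, nearest-gene assignment, all transcript ends and single replicates were tried as alternatives. The counting was tested on simulated data. Python 3.11.15, NumPy 2.4.6, pandas 2.3.3 and Matplotlib 3.10.9 were used.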

Additional observations from a re-analysis of the deposited data

How the results depend on the processing

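No paired analysis was possible because all samples form 1 group. The thresholded count of 4 was 7 with the window to 2000 bp, and from 3 to 6 under the other alternatives run. With either replicate left out it was 5, counted on the best-ranked regions of the remaining replicate list. That is a different call, since the thresholded list is made from both replicates and cannot be remade from 1. The 4 genes among the best 1000 of both replicates were 7 with the window to 2000 bp. When 1 replicate was left out they were 8 to 11, since a place in 1 list was then enough. The pooled count of 19 was 12 with nearest 5′ ends only. The replicate 2 count of 38 was 21 with a window from 500 bp upstream to 100 bp downstream, 58 with that to 2000 bp and 25 with nearest 5′ ends only. The count in both replicates, 23, was 15, 40 and 11 under the same settings. With 1 replicate left out it becomes the count of the other list alone, 38 or 48, which cannot be lower. The element count of 23 promoters was 4 for exact copies and 63 in the window of 1000 to 200 bp. In these settings counts move because windows, genes or samples differ by construction, and other genes move too (1.42% had a thresholded peak with the window to 2000 bp). The members' share stayed above that of other genes in each setting run for the thresholded and pooled lists. Single genes decide the thresholded count, and trans-splicing can leave an annotated 5′ end short of the true start. With 4 thresholded genes, no read counts and no second condition, differences between roles were not detectable.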

Other observations

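The list of replicate 2 had 2 regions on mitochondrial DNA, which are its best-ranked regions. They lay at M:12259-12598 with signal 3081.3 and at M:13019-13332 with signal 604.6, and both summits fell in the gene that RefSeq names ND5, for a subunit of complex I. The replicate 1, pooled and thresholded lists had no region on mitochondrial DNA. What set these regions apart was not tested.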
